A study of Mus musculus with 2 samples.

Results

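The 4 myogenic regulatory factors (Myf5, Myod1, Myog and Myf6) and the 4 Mef2 genes (Mef2a, Mef2b, Mef2c and Mef2d) were followed in total RNA of the mouse embryonic limb. These 8 genes were taken by symbol from 43346 Ensembl genes, and all 8 were present in the tables of both libraries. The limbs came from embryos of strain B6NCrl at embryonic day 12.5, with both sexes pooled and no genetic change or treatment. There is 1 group, with 2 biological replicates. Replicate 1 pooled the limbs of 88 embryos and replicate 2 those of 68, and each library started from 10 ng of RNA longer than 200 nt. The labels list both pools under the same donor entry and do not separate forelimb from hindlimb, so the spread between the libraries is that between these pools. No condition was compared. The comparisons are between the 8 genes within the limb, between their transcripts, and between the libraries.

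Myogenic regulatory factors are basic helix-loop-helix proteins that bind DNA at E-boxes as dimers with E proteins. Myf5 and Myod1 commit cells that migrated from the somites to the muscle lineage, Myog drives their differentiation into fusing myocytes, and Myf6 (also called Mrf4) acts in both early specification and late fibre maturation. Mef2 proteins carry a MADS box, bind A/T-rich sites beside E-boxes in muscle genes and act with the myogenic factors, and they are also expressed outside muscle, among others in endothelium, neurons and hypertrophic cartilage.

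The Myog promoter is shown because both protein families are known to act on it. Its 250 bases before the RefSeq start (GRCm38.p6, chr1:134289754-134290003, plus strand) are given with matches to the E-box CANNTG and to the core of the MEF2 site (TA, 4 bases that are each A or T, TA) in capitals.
Myog: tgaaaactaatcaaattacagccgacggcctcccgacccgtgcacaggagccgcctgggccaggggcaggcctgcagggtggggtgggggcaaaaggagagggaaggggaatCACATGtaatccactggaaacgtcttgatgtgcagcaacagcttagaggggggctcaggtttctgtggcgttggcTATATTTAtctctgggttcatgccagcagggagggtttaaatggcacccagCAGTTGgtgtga
The E-boxes began 138 and 12 bases before the start and the MEF2 core began 63 bases before it. Both motifs read the same pattern on either strand, and E-box matches did not overlap MEF2 matches. RefSeq windows of 300 bases (250 before the start and 50 after it) were matched for 6 members, with 8 windows in all because Mef2c had 3. Myod1 and Myf6 were not matched. Over 32851 promoter windows, 72.3% held an E-box and 9.32% a MEF2 core, so an E-box alone is common. Besides Myog, Mef2b held 2 E-boxes, the first window of Mef2c held 2 E-boxes and 1 MEF2 core, and another Mef2c window held 1 E-box. Mef2a held the MEF2 consensus CTAAAAATAG, beginning 2 bases before its start. That longer consensus, which contains the core, occurred in 3.19% of all windows. None of these motifs was in the windows of Myf5 and Mef2d. A match describes the letters only.

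Alternative coding exons of the Mef2 genes are shown because the transcript models that carry them held different shares of Mef2a, Mef2c and Mef2d. Mef2a, Mef2c and Mef2d choose between related exons right after the exons of the MADS box, called α1 and α2, and can include a short acidic β exon. As background, the α2 and β exons are known from striated muscle, and β from brain as well, while α1 forms are widespread. They are written from the GENCODE M21 transcripts on mm10, with both strands read 5′ to 3′ along the gene. In the Mef2c α1-type exon, capitals mark the part found in the M21 form of a transcript of the deposited tables.
Mef2a α1-type (chr7:67268269-67268400, minus strand): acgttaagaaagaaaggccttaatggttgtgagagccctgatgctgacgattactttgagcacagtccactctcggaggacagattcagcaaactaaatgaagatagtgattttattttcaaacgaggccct
Mef2c α1-type (chr13:83625265-83625408, plus strand): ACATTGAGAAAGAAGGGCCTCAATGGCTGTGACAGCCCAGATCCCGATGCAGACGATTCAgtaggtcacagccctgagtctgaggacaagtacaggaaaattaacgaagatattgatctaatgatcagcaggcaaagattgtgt
Mef2d α1-type (chr3:88158034-88158171, plus strand): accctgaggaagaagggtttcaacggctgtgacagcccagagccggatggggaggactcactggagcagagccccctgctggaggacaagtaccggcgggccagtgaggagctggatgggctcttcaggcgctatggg
Mef2c α2-type (chr13:83625470-83625607, plus strand): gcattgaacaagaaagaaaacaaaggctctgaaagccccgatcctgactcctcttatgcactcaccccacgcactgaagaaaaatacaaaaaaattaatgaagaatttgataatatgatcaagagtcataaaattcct
Mef2d α2-type (chr3:88158221-88158355, plus strand): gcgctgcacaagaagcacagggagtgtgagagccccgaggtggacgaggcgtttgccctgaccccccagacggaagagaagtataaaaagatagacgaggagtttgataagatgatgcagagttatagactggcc
Mef2a β (chr7:67244521-67244544, minus strand): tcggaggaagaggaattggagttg
Mef2c β (chr13:83654598-83654621, plus strand): tctgaggatgtggatctgctgttg
Mef2d β (chr3:88161781-88161801, plus strand): actgaggaccatttagatctg
Exon length does not mark the type, since a 138-base exon is of the α2 type in Mef2a and Mef2c and of the α1 type in Mef2d. The types were set by likeness of sequence. Exons of the same type from different genes shared 54.5% to 77.5% of aligned bases and 50% to 76.1% of translated codons, and exons of different types shared 47.3% to 62.5% of bases and 32.6% to 45.8% of translated codons. The base ranges overlap and the codon ranges do not. Because the types were set by this likeness, the ranges describe the types and cannot test them.

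Levels were set in TPM, which is scaled by transcript length so that genes can be compared. A gene counted as detected at 1 TPM or more in both libraries, which 14507 genes reached, with a median of 18.3 TPM. The libraries held 28832310 and 29249374 expected counts over Ensembl genes. Of the 8 members, 6 were detected and 2 (Myf6 and Mef2b) were below 1 TPM. In RNA from whole limb, fewer cells of a type and less RNA per cell cannot be told apart. Defining markers of skeletal muscle were present, with 7 of 7 detected and summed levels of 350.4 TPM in replicate 1 and 330.0 TPM in replicate 2.

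Myog, the differentiation factor, had the highest level of the 8 genes, with 97.9 TPM in replicate 1 and 91.2 in replicate 2 (94.5 ± 4.70, SD, n = 2). It ranked 1852 among the 14507 detected genes. The gene lies on chr1:134289989-134292548. Myod1 (chr7:46376474-46379099), the commitment factor, had 39.9 and 44.0 TPM (42.0 ± 2.90). Both Myog values lay above both Myod1 values, and the Myog to Myod1 ratio was 2.45 in replicate 1 and 2.07 in replicate 2.

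Myf5 (chr10:107482908-107486134), the earliest of the 4 to be switched on in the embryo, had 11.7 and 11.2 TPM (11.4 ± 0.339). Myod1 was above Myf5 by 3.43-fold and 3.94-fold in the libraries, and their values did not overlap. Myf6 (chr10:107492853-107494737), its neighbour 6718 bases away on the same strand, had 0.740 and 0.600 TPM (0.670 ± 0.099), from 16 and 13 counts. Myf5 exceeded Myf6 by 15.7-fold and 18.6-fold, so these neighbouring genes stood far apart in both libraries.

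The myogenic factors summed to 150.2 TPM in replicate 1 and 147.0 in replicate 2 (149 ± 2.23). Myog held 65.2% and 62.1% of this sum, Myod1 26.6% and 29.9%, Myf5 7.76% and 7.60%, and Myf6 0.493% and 0.408%. The share of Myog was thus above the shares of the other 3 combined in each library.

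**Figure D1:**
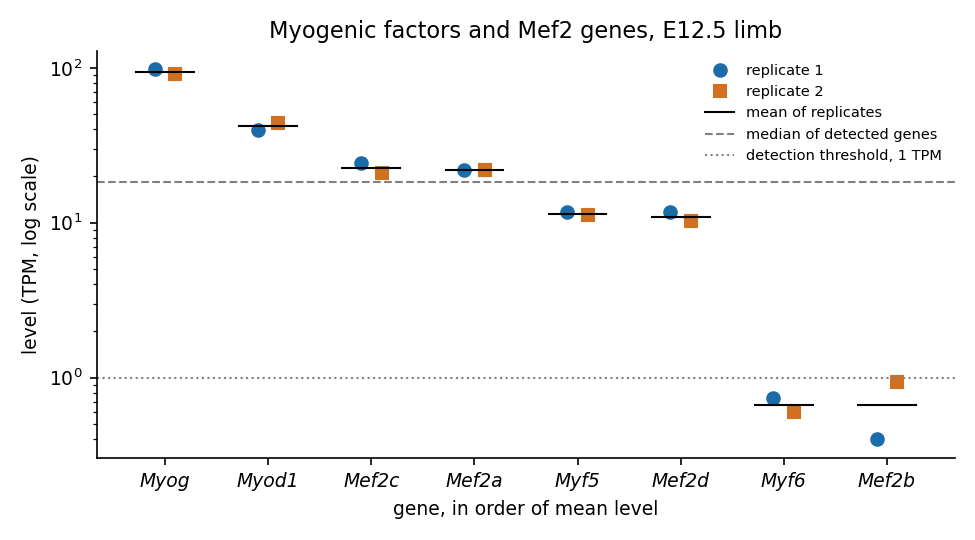
Level of each gene in TPM on a log axis, with a circle for replicate 1, a square for replicate 2, a bar for the mean, a dashed line at the median of detected genes (18.3 TPM) and a dotted line at 1 TPM. Myog and Myod1 lead, Mef2c and Mef2a lie just above the median and Myf5 and Mef2d below it, and Myf6 and Mef2b lie under the dotted line.

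The 4 myogenic factors are paralogs, and reads shared between paralogs could be split in the tables. Their coding sequences are 255 codons in Myf5, 318 in Myod1, 224 in Myog and 242 in Myf6, and their translations were identical at 41.7% to 54.9% of the positions of the shorter one. The longest stretch with the same translation in all 4 genes is 39 bases in the first coding exon, within the helix-loop-helix region. It is shown for 2 of the factors, with the 10 positions that differ among the 4 genes in capitals.
Myf5 (chr10:107485557-107485595, minus strand): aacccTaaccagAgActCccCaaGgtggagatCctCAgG
Myog (chr1:134290386-134290424, plus strand): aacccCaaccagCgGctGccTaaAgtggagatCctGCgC
Even in this stretch, Myf5 and Myog differ at 9 bases, and Myod1 and Myog, the closest pair there, at 4. The counts of the 4 genes were whole numbers (for example 2559 and 2402 for Myog), and each had 1 transcript model with a posterior SD of its count of 0 in the tables.

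Mef2c (chr13:83504034-83667080), which is needed for heart, vessel and skeletal development as well as muscle, had 24.4 TPM in replicate 1 and 20.9 in replicate 2 (22.6 ± 2.45). Mef2a (chr7:67231163-67372858), which is broadly expressed, had 22.1 and 22.0 TPM (22.0 ± 0.064). Their values overlapped and their order turned between libraries. Mef2d (chr3:88142372-88172086), also broadly expressed, had 11.7 and 10.2 TPM (11.0 ± 1.08). Mef2a exceeded Mef2d by 1.88-fold and 2.16-fold, and their values did not overlap. Mef2b (chr8:70139711-70167488), best known from B cells, had 0.400 and 0.940 TPM (0.670 ± 0.382), from 9 and 21 counts.

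The Mef2 genes summed to 58.5 TPM in replicate 1 and 54.0 in replicate 2 (56.3 ± 3.22). Mef2c held 41.6% and 38.7% of the sum, Mef2a 37.7% and 40.7%, Mef2d 20.0% and 18.9%, and Mef2b 0.683% and 1.74%. The sum of the myogenic factors was 2.56 and 2.72 times that of the Mef2 genes.

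In order of mean level, the 8 genes were Myog, Myod1, Mef2c, Mef2a, Myf5, Mef2d, Myf6 and Mef2b, the last pair with the same mean. Neighbours whose libraries did not overlap were Myog and Myod1 (log2 ratio 1.17 ± 0.17), Myod1 and Mef2c (0.89 ± 0.26), Mef2a and Myf5 (0.94 ± 0.04), and Mef2d and Myf6 (3.85 ± 0.04), each the SD over 2 libraries and with 0.1 TPM added to both genes. The last of these rests on the 16 and 13 counts of Myf6 and was 2.84 with 1 TPM added and 5.84 on expected counts with no length scaling. On such counts that of Mef2a over Myf5 was 2.01. Mef2c and Mef2a, Myf5 and Mef2d, and Myf6 and Mef2b did overlap. The 8 genes thus fell into 5 steps: Myog, Myod1, the pair Mef2c and Mef2a, the pair Myf5 and Mef2d, and the pair below 1 TPM. With 2 replicates, an exact sign-flip test of a ratio cannot give a p under 0.5, so no p is given for these steps. On expected counts with no length scaling, Mef2c was above Myod1 (log2 ratio of Myod1 over Mef2c -0.61), with gene lengths in the tables of 4969 and 5205 nt for Mef2c and 1854 nt for Myod1.

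Markers of other cell types known to express Mef2 genes were looked for as well. All 6 endothelial markers were detected (summed levels 97.3 and 93.8 TPM) and all 5 macrophage markers (43.1 and 37.8). Of 6 neuronal markers 3 were detected (16.4 and 29.2), of 4 smooth muscle markers 2 (129 and 119, of which Acta2 alone 122 and 114), and of 4 markers of hypertrophic cartilage 1 (6.39 and 3.29), with Mmp13 listed at 0. The smooth muscle markers Cnn1 (0.490 and 0.510 TPM) and Myh11 (0.170 in each library) were not detected, so that sum is mostly the level of Acta2. Of 6 heart markers 2 were detected (8.85 and 7.44), and Nkx2-5, which defines heart muscle, was listed at 0. Of 4 B cell markers, only Ebf1 was detected, which mesenchyme also expresses. How much of each Mef2 level came from each cell type was not tested.

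Genes on the same ground as 3 Mef2 genes had levels of their own. Lysmd4 overlaps Mef2a on the opposite strand (13.6 and 12.1 TPM), the antisense gene 1700113A16Rik overlaps the 3′ end of Mef2d (7.78 and 7.55), and Borcs8 overlaps Mef2b on the same strand (39.2 and 37.7). No source used here gives the strand setting of the counts, so overlapping reads of the 2 opposite-strand pairs cannot be told apart. A readthrough transcript of Borcs8 and Mef2b, Mef2b-205, was counted under Borcs8 and was listed at 0 in both libraries.

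The transcript tables give each transcript's share of its gene's TPM. Each myogenic factor had 1 transcript, while Mef2a had 8, Mef2b 4, Mef2c 3 and Mef2d 7. Transcripts with the α1-type exon held 66.3% and 64.6% of Mef2a in the libraries (65.4 ± 1.17%, SD, n = 2), and those with the α2-type exon 28.7% and 26.9% (27.8 ± 1.29%). In Mef2d the α1-type exon held 95.3% and 94.6% (94.9 ± 0.502%) and the α2-type exon 2.11% and 2.13% (2.12 ± 0.014%). The α2-type share of Mef2a was thus above that of Mef2d in both libraries, and the α1-type exon led in both genes. The α2-type share of Mef2d rests on 7.74 and 6.81 expected counts, with posterior SDs of 5.43 and 4.28 in the tables, so its size is poorly known.

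Mef2c could not be split in the same way. Its exons are those of GENCODE M21, and all 3 of its models differ in length between M21 and the tables (6277 against 6427 nt for Mef2c-202, 3556 against 3480 for Mef2c-203, 6217 against 6325 for Mef2c-201). As M21 has them, all 3 of its transcripts in the tables carry the α2-type exon, and Mef2c-202 has the first 60 bases of the α1-type exon before it. GENCODE M21 has 31 Mef2c transcripts, 10 of them with the whole 144-base α1-type exon, and none of those 10 is in the tables. The share of Mef2c-202 was 43.6% in replicate 1 and 53.8% in replicate 2 (48.7 ± 7.21%). Since no transcript in the tables has the whole α1-type exon in M21, a share of α1 against α2 is not given for Mef2c.

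The β exon was in 63.5% and 59.7% of Mef2a (61.6 ± 2.62%), all of it in Mef2a-208 (the other model with this exon was listed at 0), a transcript that also has the α1-type exon. It was in 49.2% and 41.3% of Mef2c (45.3 ± 5.61%), in Mef2c-203. In Mef2d it was in 5.70% and 5.00% (5.35 ± 0.495%), in Mef2d-203, from 21.17 and 16.26 expected counts with posterior SDs of 9.1 and 7.51, so this size is poorly known too. Among the models counted, the β-exon shares of Mef2a, Mef2c and Mef2d did not overlap between genes, with Mef2a highest and Mef2d lowest in each library. Only 3 of the 31 Mef2c models of M21 were counted, so the place of Mef2c in this order holds for those models only. The tables held 8 Mef2a models, against 12 in M21, so the exon shares of Mef2a also hold for the models counted. For Mef2d both held 7.

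**Figure D2:**
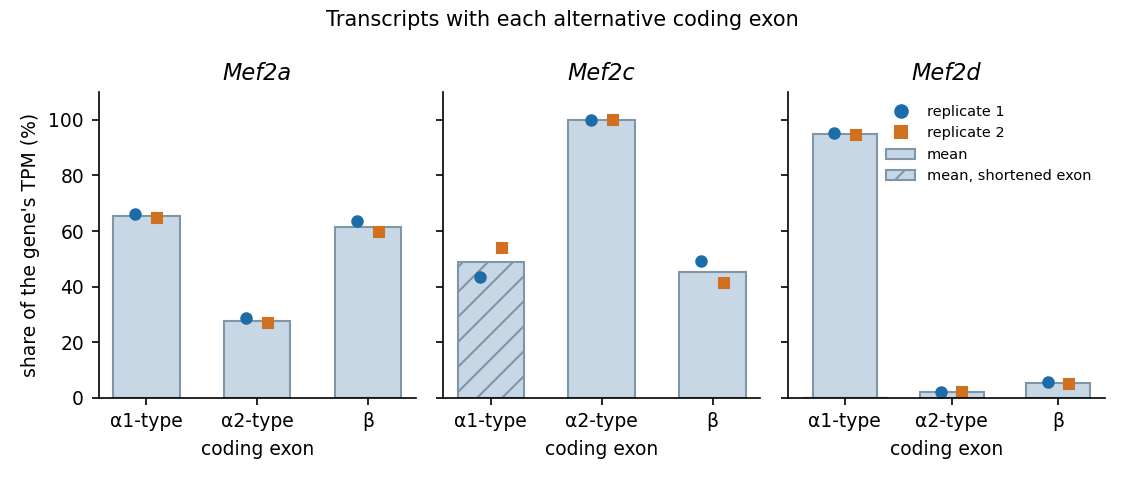
Share of each gene's TPM, in percent, in transcripts with the α1-type, α2-type or β exon, with bars for the mean of 2 replicates, circles for replicate 1 and squares for replicate 2; the hatched bar is the shortened α1-type exon of Mef2c-202. Models with the α1-type, α2-type and β exons each held a share of Mef2a, and models with the α1-type exon held most of Mef2d. All 3 Mef2c transcripts counted carry the α2-type exon in GENCODE M21, so the height of that bar is set by the models.

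In GENCODE M21, the models that differ in these exons also differ at their 3′ ends. The 3′ untranslated region is 3708 bases in Mef2a-208 but 832 and 664 in the α2-type transcripts Mef2a-203 and Mef2a-201. It is 4450 bases in Mef2c-202 and Mef2c-201 but 1845 in Mef2c-203, and 15 in the Mef2d transcripts with the α2-type or β exon but 3446 in Mef2d-201 and 1580 in Mef2d-204. Mef2a-204, an α1-type model without the β exon, has 2953 bases there, also unlike Mef2a-208, and was listed at 0 in both libraries. A share of an exon and a share of a 3′ end therefore cannot be told apart in these tables.

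The leading transcript was Mef2a-208 in both libraries. It changed from Mef2c-203 (49.2%) in replicate 1 to Mef2c-202 (53.8%) in replicate 2, and from Mef2d-204 (46.0% and 41.1%) to Mef2d-201 (43.6% and 48.5%). Mef2a-203 and Mef2a-201, whose coding sequences have the same exons, moved in opposite directions (22.3% to 11.1% and 6.36% to 15.7%) while their sum stayed between 26.9% and 28.7%. Mef2b-203 held all of Mef2b in replicate 1 and 62.9% in replicate 2, from 9 and 13.58 expected counts.

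The first 2 coding exons, which carry the MADS box, have 258 bases in all 4 Mef2 genes. Between genes, 74.8% (Mef2a and Mef2b) to 83.7% (Mef2c and Mef2d) of these bases were the same. Their translations were the same at 85 of 86 codons in Mef2a and Mef2c and at 73 of 86 in each pair with Mef2b. By translated codons Mef2b was the least alike of the 4, and by bases it was not set apart, with Mef2b and Mef2d sharing 80.6%.

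An exact binomial test set the counts of each gene in replicate 2 against those in replicate 1. It covers counting error only and compares these libraries, not conditions. None of the 8 members passed at an adjusted p under 0.05 with a fold of at least 2, against 1.85% of 18580 genes tested. At any fold, 0 members were higher in replicate 2, against 7.10% of genes, and 2 were lower, against 9.30%. At an unadjusted p under 0.05 there were 5 of the 8 members, against 27.3% of genes. That share was not matched to the members' counts, and this test passes genes of many counts more easily. Mef2c was lower in replicate 2 (2224 and 2014 counts, log2 difference -0.16, 95% exact interval -0.25 to -0.08, adjusted p = 0.0029), and so was Myog (2559 and 2402 counts, -0.11, -0.19 to -0.03, adjusted p = 0.0417). Both differences lay inside the span of 0.32 either way that holds 90% of genes with at least 100 counts. The difference of Mef2c also passed with TMM scaling and with DESeq2 size factors (adjusted p 0.0055 and 0.0060), and that of Myog did not (0.0661 and 0.0700). With edgeR's exact test, 0 of 18580 genes passed, 173 had an unadjusted p under 0.05, and no member did. That test takes its dispersion from the same 2 libraries whose difference it tests, so few calls follow from its construction and it says nothing about any member.

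Of the other members, Myod1 was at 1312 and 1457 counts (log2 difference 0.13, exact interval 0.02 to 0.24, adjusted p = 0.0874). Mef2d was at 880 and 787 rounded counts (-0.18, exact interval -0.32 to -0.04, adjusted p = 0.0617). Mef2b had the widest gap, 2.30-fold more counts in replicate 2, but its exact interval ran from 1.01 to 5.70 and its adjusted p was 0.165. Mef2a, Myf5 and Myf6 had adjusted p-values of 0.224, 0.721 and 0.797. The median log2 difference of the 8 members in TPM was -0.08, beside 0.01 over all genes tested.

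**Figure D3:**
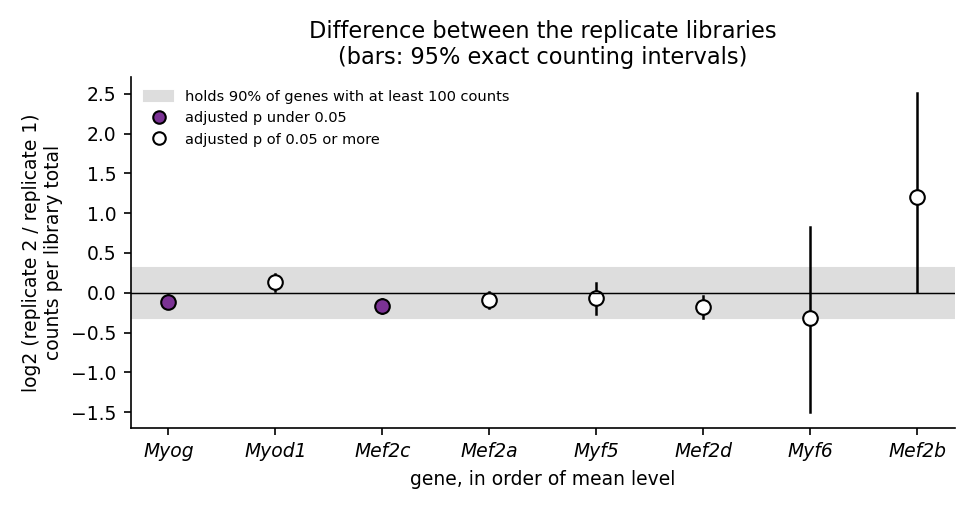
Log2 ratio of replicate 2 over replicate 1 in counts per library total for each gene, with 95% exact counting intervals as bars, filled points where the adjusted p is under 0.05, and a grey band that holds 90% of genes with at least 100 counts. The points of the 6 detected genes lie inside the band, and the intervals of Myf6 and Mef2b are wide.

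Values that moved between the same libraries are given beside these differences. The summed level of cartilage markers was 866 TPM in replicate 1 and 750.1 in replicate 2, and that of neuronal markers 16.4 and 29.2. The cartilage genes moved unevenly. Col2a1 had 453 and 369 TPM, Col9a1 174 and 162, Matn1 25.3 and 10.2, and Acan 6.26 and 3.13, while Sox9 hardly differed (207.7 and 206.3). Markers of hypertrophic cartilage, a tissue known to express Mef2c, summed to 6.39 and 3.29 TPM. Most of this sum was Ihh (5.34 and 2.82 TPM), the only detected marker of that list. Ibsp had 0.700 and 0 TPM, Col10a1 went the other way (0.350 and 0.470), and Mmp13 was listed at 0. Myod1 and Mef2b, the 2 members with higher TPM in replicate 2, had transcripts of 58.9% and 64.1% GC. The other 6 ranged from 40.8% to 55.0%. The highest GC of any 100-nt window did not part the members in this way. It was 88% in Mef2d and 83% in Mef2a, 75% in Myod1 and 74% in Mef2b, and 65% to 71% in the rest. Neither Myod1 nor Mef2b passed the exact binomial test (adjusted p 0.0874 and 0.165), and Mef2b rests on 9 and 21 counts. Mef2a, among the other 6, hardly differed in TPM (log2 difference -0.006). The part of tissue makeup or base composition in the differences was not tested.

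The dimer partners of the myogenic factors, the E proteins, were all detected and all above Myog in level. Tcf4 had 279 and 271 TPM (275 ± 5.88), Tcf3 227 and 210.2 (219 ± 12.1), and Tcf12 128 and 118 (123 ± 6.80). Their sum was 4.23 and 4.08 times that of the myogenic factors. E proteins are expressed in many cell types, so the ratio is of the whole limb. Of the 3 genes, 0 were higher and 2 lower in replicate 2 at any fold, against 7.10% and 9.30% of all genes tested, and none was called at 2-fold (1.85%).

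Of 11 inhibitors of the myogenic factors, 10 were detected, with a median of 39.8 TPM. Id proteins, which bind E proteins and keep them from DNA, led the list, with Id3 at 537 and 555 TPM, Id2 at 293 and 305, and Id1 at 246 and 278. The Id genes summed to 1.72 and 1.92 times the E proteins. Bhlhe41 was lowest, at 1.04 and 0.830 TPM. At any fold 2 of the 11 were higher and 1 lower in replicate 2, against 7.10% and 9.30% of all genes tested, and none was called at 2-fold (1.85%).

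Of 12 upstream regulators and partners in limb myogenesis, 10 were detected and the median level was 7.87 TPM. The homeobox gene Meox2 had 50.5 and 56.0 TPM. Pax3, which marks migrating muscle precursors, was above Pax7, the lowest of the list by its mean (1.47 and 1.31 against 0.360 and 0.340 TPM). Pax3 was named here after its values were seen. At any fold, 3 were higher in replicate 2 and 0 lower, against 7.10% and 9.30% of all genes tested, and the median log2 difference was 0.00.

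Of 22 muscle targets, 21 were detected, with a median of 17.9 TPM. The skeletal muscle markers given above are all in this list, so the numbers detected are not separate results. Actc1, the actin of embryonic skeletal and heart muscle, had 351 and 337 TPM, the slow troponin gene Tnnt1 160 and 157, and the myosin light chain gene Myl1 141 and 144. Ckm, the muscle creatine kinase of mature fibres, was lowest at 0.240 and 0.200 TPM. At any fold, 3 targets were higher and 7 lower in replicate 2, against 7.10% and 9.30% of all genes tested, with a median log2 difference of -0.09 beside 0.01 over all genes. Rbm24, a splicing regulator of muscle, was the 1 target of 22 called at 2-fold (1.85% of all genes), with 2.88 and 6.07 TPM from 168 and 357 counts (log2 difference 1.07, exact test, adjusted p = 3.2e-14).

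All 6 genes of a list of class IIa deacetylases, Cabin1 and Sik1 were detected. The list was drawn up under the name of Mef2 repressors, but Sik1 (8.13 and 8.54 TPM) is not to be read as one. The class IIa deacetylases bind Mef2 proteins and hold their targets off. Hdac5 had 53.4 and 49.3 TPM, Hdac7 27.6 and 26.4, Hdac4 18.8 and 21.9, and Hdac9, the lowest of the list, 3.95 and 4.82. Their sum was 1.77 and 1.90 times that of the Mef2 genes. At any fold, 1 of the 6 was higher in replicate 2 and 0 lower, against 7.10% and 9.30% of all genes tested.

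All 15 Mef2 coactivators and activating enzymes were detected, with a median of 24.4 TPM. The calcineurin subunit gene Ppp3ca had 86.4 and 95.6 TPM, Mapk7, which encodes the kinase ERK5, 77.1 and 71.6, and the arginine methyltransferase gene Carm1 66.3 and 59.6. The acetyltransferase gene Kat2b was lowest, at 1.89 and 2.29 TPM. At any fold, 4 were higher and 3 lower in replicate 2, against 7.10% and 9.30% of all genes tested, and none was called at 2-fold (1.85%).

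**Figure D4:**
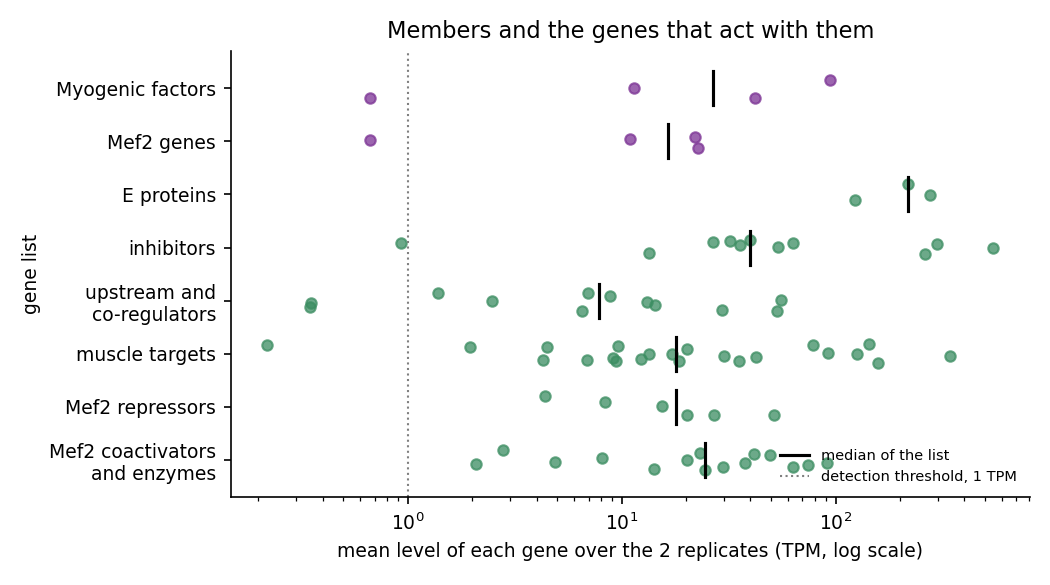
Mean level of each gene over 2 replicates in TPM on a log axis, 1 point per gene, for the myogenic factors, the Mef2 genes and the 6 lists, with a bar at each list's median and a dotted line at 1 TPM; the vertical scatter within a list only separates points. E proteins (123 to 275 TPM) lie above every myogenic factor, and the muscle targets spread from 0.220 to 344 TPM. The row named Mef2 repressors holds the class IIa deacetylases, Cabin1 and Sik1, and Sik1 is not to be read as a repressor.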

How the data were processed

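Total RNA-seq of 2 limb pools was analysed from tables per gene and per transcript. The deposited expected counts are estimated counts that split shared reads. The deposited TPM and FPKM values are scaled by length and library, per the file headers, and the deposited percent values are each transcript's share of its gene. The deposited posterior SD of each count was quoted where named. The assembly was mm10 with GENCODE M4, per the deposited text files. The sources used here do not give the aligner, the quantifier or the strand setting. Names, coordinates and exons came from GENCODE M21 (same assembly), and promoters from RefSeq (GRCm38.p6).

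Of 69691 rows, 43346 were Ensembl genes, 42462 of them named. Rounded counts of 18580 genes with at least 10 counts over both libraries were compared with an exact conditional binomial test and Benjamini-Hochberg adjustment, with calls at an adjusted p under 0.05 and at least 2-fold. Log ratios used a pseudocount of 0.1 TPM. Intervals cover counting error only, at 28832310 and 29249374 counts. The chi-square over genes was 6.21 per degree of freedom, which showed that the libraries were not 1 library deposited again. The test was checked only on simulated counts with no spread beyond counting error. These libraries differed by more than counting error, so the check does not cover them. All 8 members were described, and of each list the 3 highest, the lowest and any gene called, with marker lists given as sums. Some items under this rule, and 1 exon sequence, are not reported here. Members and lists were chosen with earlier results of these data known. Alternatives changed scaling, filters, test, unit and pseudocount and left out each replicate. Tools were Python 3.11.15 (numpy 2.4.6, pandas 2.3.3, scipy 1.17.1, Biopython 1.88, matplotlib 3.10.9) and R 4.3.3 (edgeR 4.0.16, DESeq2 1.42.0).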

Additional observations from a re-analysis of the deposited data

How the results depend on the processing

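Of 198 alternative values, 154 were labelled as unchanged. For differences and ratios this meant the same direction and, where one was made, the same call. Levels and shares had to move by less than the spread between replicates. Numbers of genes called or detected had only to stay within a set fold of the main number. With 2 replicates, leaving out a replicate always moves a level or share by less than their SD. Those alternatives were bound to be among the 154 and say nothing about stability. At any fold, Myog lost its call in 4 of the 5 other settings (adjusted p 0.0541 with no filter on counts, 0.0661 to 1 in the other 3) and Mef2c only with edgeR's exact test, whose dispersion comes from the difference tested and which therefore says nothing about stability. Calls at 2-fold fell from 343 to 75 with at least 100 counts and to 0 with edgeR's exact test, and calls at any fold from 3048 to 0 with that test, which tested the same 18580 genes and had 173 at an unadjusted p under 0.05. On counts with no length scaling the log2 ratio of Myod1 over Mef2c turned to -0.61 and that of Myf5 over Mef2d to -0.97, and that of Mef2c over Mef2a rose from 0.04 to 0.30 with libraries that no longer overlapped. With posterior mean TPM, the ratios of Mef2c over Mef2a (-0.0129), Myf5 over Mef2d (-0.0913) and Myf6 over Mef2b (-0.0247) turned. Leaving out a replicate, they ranged from -0.0704 to 0.14, -0.0086 to 0.13 and -0.57 to 0.75. The share of Myog among the myogenic factors was 57.6% on counts, against 63.6%, and that of Mef2c among the Mef2 genes 45.2%, against 40.2%. From posterior means, the shares of Mef2a became 58.3% (β), 25.6% (α2-type) and 67.4% (α1-type), and of Mef2d 85.0% (α1-type), 2.73% (α2-type) and 5.87% (β). The causes were not tested beyond the length scaling itself. No paired analysis was possible because there was 1 group. Values of Myf6, Mef2b and the rarer Mef2d transcripts rest on few counts at this depth.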
